A study of Macaca mulatta with 5 samples.

Results

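Mitosis, kinetochore and condensin genes were examined as a set of 45 genes out of the 16970 genes measured by RNA sequencing in 5 libraries of rhesus macaque (Macaca mulatta) neural cells. The genes were chosen by name for their known roles in cell division, and their rows were taken from the deposited table by gene symbol. The table gave 40 of them a symbol. The other 5 (CCNA2, BUB3, CENPM, PTTG1 and SPC24) carried a cluster number in its place and were found through their Ensembl gene ID. All 45 had at least 20 reads in a library and passed the filter of the test. BIRC5 had 2 rows, and the row with more reads stands for it here.

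The study derived neuroepithelial stem cells (NESC) from monkey embryonic stem cells. Such cells line the early neural tube and precede radial glia. NESC at passages 5, 24 and 36, with 1 library each, were kept in a neurobasal medium with 3 µM CHIR99021 (an inhibitor of GSK3 that switches on WNT signalling), 5 µM SB431542 (an inhibitor of TGF-beta receptors), 10 ng/ml bFGF and 1000 U/ml hLIF. Radial glial progenitor cells, abbreviated RPGC by the submitters, were grown in that medium for 7 days with CHIR99021 left out. The neurons were NESC of passage 36 that had 13 days in differentiation medium, with neither the inhibitors nor the growth factors listed among its components, on plates coated with 5 µg/ml laminin and 0.05% gelatin. RPGC, whose sample name also carries passage 36, and neurons had 1 library each. Whether the libraries came from separate cultures is not stated, so the spread between them may be technical.

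In dividing cells, cyclin B with CDK1 starts mitosis, condensin and topoisomerase II compact and untangle the chromosomes, and kinetochores built on centromeres attach them to the spindle. The spindle checkpoint holds the cell until every chromosome is attached, after which CDC20 turns on the anaphase-promoting complex (APC/C), which has securin and cyclin B destroyed so that the chromatids part. Most of these genes are transcribed in the G2 and M phases of the cycle, and neural progenitors in the ventricular zone divide often while the neurons they form do not divide. The roles given below are those known from human cells and from model organisms.

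The reads recovered from the deposited values numbered 5403437 to 7899991 per library. Levels are given as FPKM, a fragment count scaled to transcript length and library size. A run of 3 NESC values gives passage 5 first, then 24, then 36. Folds printed as "fold" are ratios of FPKM against the NESC mean, and log2 fold changes are on the log2(FPKM + 1) scale, which understates the change of low genes, with the standard error (SE) from limma after ±. Differences were tested with limma across 14571 genes and adjusted by the Benjamini-Hochberg method with a threshold of 0.05. As RPGC and neurons had no replicates, their p-values measure the spread between the 3 NESC passages, and the lone libraries are assumed to vary as NESC do. The neuron markers in the table (12 of 12 listed) summed to 805 to 977 FPKM in NESC (1 of them at 0 in passage 36), 1221 in RPGC and 5881 in neurons. NEFL and NEFM, at 198 and 199 FPKM in neurons, lay within their NESC ranges, and the other neuron markers were above theirs. Progenitor markers (10 of 11 in the table, 0 of them at 0 in any library) summed to 3573 to 4626 FPKM in NESC, 5494 in RPGC and 2276 in neurons. SOX2, NES, PAX6, VIM and LIN28A were lower in neurons than in every NESC library, and HES5, FABP7 and TTYH1 lay within the NESC range. SLC1A3 (200 FPKM) and SOX9 (31.2) were above it. VIM (824 FPKM) and FABP7 (704) were the largest parts of the neuron sum. The neuron library thus held transcripts of these markers as well, whose part in the levels left there was not tested. POU5F1, the pluripotency marker in the table (1 of 6 listed), reached at most 0.304 FPKM, and the 5 endothelial markers together at most 0.546 FPKM. Astrocyte markers (6 of 6) summed to 133 to 206 FPKM in NESC, 77.8 in RPGC and 36.9 in neurons, with 0 to 3 of them at 0 in a library. GJA1, which progenitors also express, made up most of the NESC sum (129, 204 and 152 FPKM, and 18.3 in neurons). GFAP, at 0 in NESC and 1.78 FPKM in neurons, S100B, at most 0.774 in NESC and 3.73 in neurons, and SLC1A2, at most 1.66 in NESC and 12.8 in neurons, were higher in neurons than in every NESC library. The neuron values of GFAP and S100B came from 5 and 11 reads. ALDH1L1 went the other way, from 1.28, 1.02 and 0.298 FPKM in NESC to 0.153 in neurons. AQP4, at 0.181 FPKM in neurons, lay within its NESC range. In such bulk libraries, fewer dividing cells and less RNA per cell cannot be told apart.

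All 45 genes were lower in neurons than in every NESC library, where 38.2% of all genes tested lay below every NESC library. By limma 40 of the 45 fell and 0 rose, while 13.3% of all genes tested fell and 14.3% rose. The median log2 fold change of the 45 genes was −3.45, from −4.99 to −0.56, and that of all genes tested was 0.01. None of the 45 was above every NESC library in neurons, against 41.1% of all genes. In neurons 42 of the 45 stood at 25% or less of the NESC mean, as did 12.9% of all genes tested. Together they took 1.01%, 0.717% and 1.11% of the reads in NESC and 0.912% in RPGC, but 0.0711% in neurons. The calls rest on all 3 NESC libraries. Without NESC P5, 5 of the 45 passed (CCNB2, CENPN, MAD2L1, PTTG1 and SMC4), and without NESC P24 or without NESC P36, 0 passed by limma. In those last fits 45 and 43 of the 45 had an unadjusted p under 0.05, as did 5128 and 5351 of all 14571 genes. The median log2 fold change of the 45 lay between −3.54 and −3.35 with a library left out. By edgeR on the recovered reads 44 of 45 passed, and 4780 of all 13063 genes did so in either direction. By limma with genes under 20 reads in every library left out, 44 of 45 and 4849 of all 12212 genes passed.

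**Figure D1:**
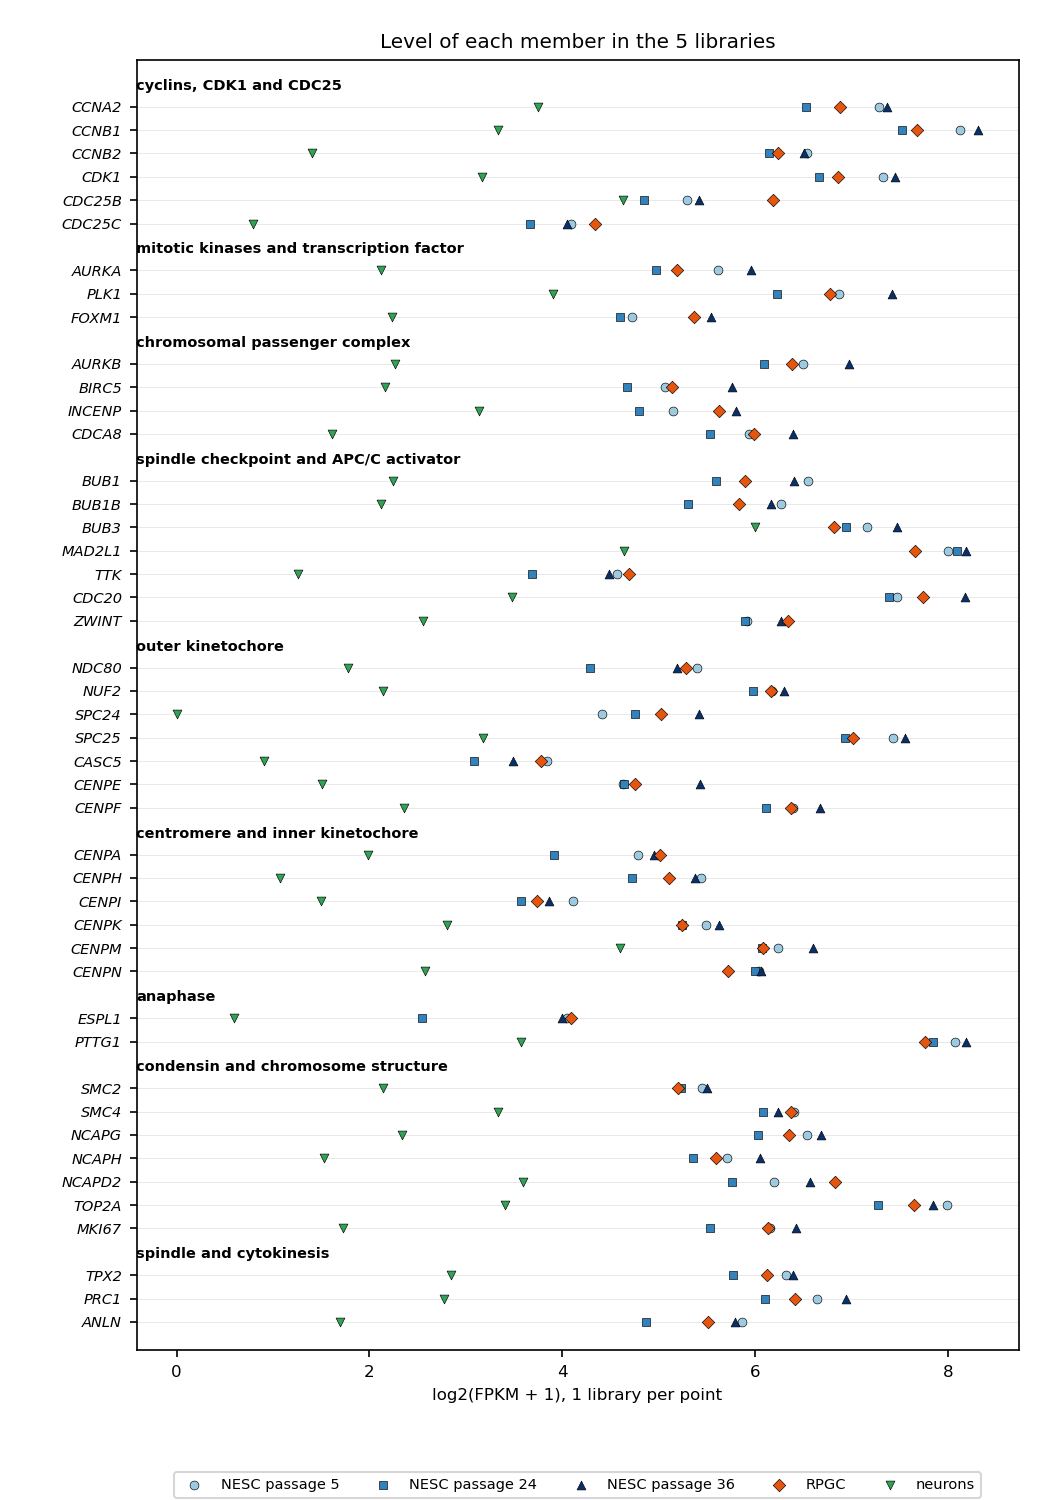
Each point is the level of a gene in 1 library, as log2(FPKM + 1) on the horizontal axis, with the 45 genes in rows grouped by role. Neurons are the lowest point in every row, by the least margin for CDC25B, and passage 24 is the lowest of the 3 NESC passages in 42 rows. SPC24 was listed at 0 in neurons.

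**Figure D2:**
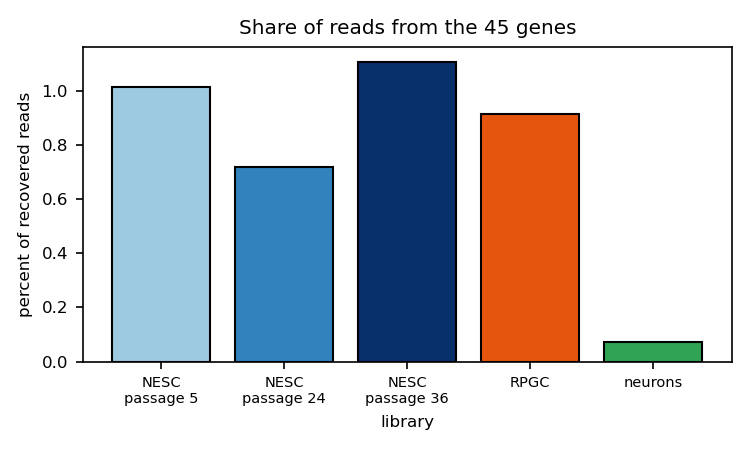
Bars give the percent of all recovered reads that came from the 45 genes in each of the 5 libraries, without replicates. The share lies between 0.717% and 1.11% in NESC and RPGC and is 0.0711% in neurons.

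Among the cyclins and the enzymes that control CDK1, 5 of 6 fell in neurons. CCNB2, a B-type cyclin, was at 92.1, 70.0 and 90.1 FPKM in NESC and 74.5 in RPGC, and fell to 1.66 FPKM in neurons, a 50.8-fold lower level (log2 fold change −4.99 ± 0.22 SE, adjusted p = 0.00974). The neuron value came from 9 reads, and counting error alone allows 0.900 to 3.74% of the NESC mean (exact Poisson interval, 95%). CCNB1, the other B-type cyclin, was more abundant, at 278, 183 and 318 FPKM in NESC and 204 in RPGC, and fell to 9.08 FPKM, 3.50% of the NESC mean. CCNA2, the cyclin of S phase and mitotic entry, fell from 155, 91.3 and 164 to 12.4 FPKM, with 117 in RPGC, so that 9.06% was left (interval 7.47 to 10.9%). That interval lies above those of CCNB1 (2.82 to 4.29%) and CCNB2. CDK1, their kinase partner, fell from 159.7, 100.2 and 174 to 7.96 FPKM, with 115 in RPGC.

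Of the CDC25 phosphatases, which remove the inhibitory phosphates from CDK1, CDC25C fell in neurons and CDC25B did not pass. CDC25C was at 16.0, 11.7 and 15.6 FPKM in NESC and 19.2 in RPGC and fell to 0.730 FPKM in neurons, or 8 reads (log2 fold change −3.15 ± 0.27 SE, adjusted p = 0.0183). CDC25B was at 38.4, 27.9 and 41.9 FPKM in NESC, 72.0 in RPGC and 23.8 in neurons, and did not pass (−0.56 ± 0.30 SE, adjusted p = 0.241). Its neuron level was 65.9% of the NESC mean, below the lowest NESC library, and among the 45 it was the gene with the most left. Its interval of 58.0 to 74.6% lay above that of CDC25C, 2.18 to 9.96%, on counting error alone. It missed the threshold in each of the 11 alternatives tried as well, with adjusted p from 0.124 to 0.399.

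The mitotic kinases AURKA and PLK1 and the transcription factor FOXM1, which drives many G2 and M phase genes, all 3 fell in neurons. AURKA, the kinase of the spindle poles, was at 48.2, 30.5 and 61.4 FPKM in NESC, 35.5 in RPGC and 3.35 in neurons (−3.40 ± 0.48 SE, adjusted p = 0.0301). PLK1, which acts from mitotic entry to cytokinesis, was at 116, 73.8 and 170.2 FPKM in NESC, 108 in RPGC and 13.9 in neurons, leaving 11.6% of the NESC mean. FOXM1 was at 25.5, 23.3 and 45.6 FPKM in NESC, 40.2 in RPGC and 3.71 in neurons (−2.72 ± 0.49 SE, adjusted p = 0.0431), which left 11.8%. With no filter on low genes FOXM1 (adjusted p = 0.0537) and PLK1 lost the call, as did BIRC5 and NDC80, and PLK1 also lost it with a pseudocount of 0.1. The log2 fold changes of AURKA, PLK1 and FOXM1 were smaller in size than those of CCNB2 or CDC20, a difference that was not tested. PLK1 and FOXM1 spread over 2.31-fold and 1.96-fold between NESC libraries. AURKA spread over 2.01-fold and kept its call by limma with no filter (adjusted p = 0.0380).

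Of the chromosomal passenger complex, which corrects faulty attachments and guides cytokinesis, AURKB, BIRC5 and CDCA8 fell and INCENP did not pass. AURKB, its kinase, fell from 89.1, 67.4 and 124 to 3.81 FPKM, with 82.8 in RPGC. CDCA8, which encodes borealin, fell from 60.2, 45.4 and 83.2 to 2.06 FPKM, with 62.4 in RPGC (−4.34 ± 0.41 SE, adjusted p = 0.0199). INCENP, the scaffold that holds the complex together, was at 34.6, 26.8 and 54.9 FPKM in NESC, 48.3 in RPGC and 7.82 in neurons (−2.11 ± 0.49 SE, adjusted p = 0.0630). The scaffold thus kept 20.2% of its NESC mean (interval 15.8 to 25.4%), against 4.07% for the kinase (interval 2.45 to 6.35%) and 3.28% for borealin. With all libraries, INCENP passed in 3 alternatives, by edgeR (adjusted p = 0.0129), after quantile normalization (0.0438) and with at least 20 reads (0.0203), and did not in the other 5, where adjusted p was 0.0562 to 0.0794. BIRC5, which encodes survivin, fell from 32.4, 24.5 and 53.3 to 3.48 FPKM, with 34.2 in RPGC, on only 31 to 78 reads in NESC and 5 in neurons. Its second row, on an unplaced contig, had 16 reads at most and was listed at 0 in neurons.

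In the spindle checkpoint, 6 of 7 genes fell, among them CDC20 and ZWINT, which were counted here with the checkpoint proteins they work with. CDC20 was at 176, 166 and 289 FPKM in NESC and 213 in RPGC and fell to 10.1 FPKM (−4.20 ± 0.41 SE, adjusted p = 0.0204). BUB1, a checkpoint kinase, fell from 92.4, 47.3 and 83.8 to 3.75 FPKM, with 58.4 in RPGC. BUB1B, which encodes BubR1, fell from 76.4, 38.6 and 70.9 to 3.36 FPKM, with 55.9 in RPGC. TTK, the kinase that starts the checkpoint signal, fell from 22.7, 11.9 and 21.4 to 1.39 FPKM, with 24.8 in RPGC. In all 4 of these genes neurons were the lowest library, and RPGC lay inside the NESC range except for TTK, where it was above. MAD2L1, which blocks CDC20, fell from 256, 273 and 292 to 24.0 FPKM, with 201 in RPGC (−3.46 ± 0.12 SE, adjusted p = 0.00721), and ZWINT from 59.3, 58.6 and 76.2 to 4.87 FPKM, with 80.3 in RPGC. BUB3, the checkpoint protein that carries BUB1 and BubR1 to kinetochores, was at 142, 122 and 177 FPKM in NESC, 112 in RPGC and 62.9 in neurons (−1.19 ± 0.26 SE, adjusted p = 0.0574). It kept 42.9% of its NESC mean (interval 38.0 to 48.2%), against 5.03% for BUB1 (interval 3.96 to 6.31%) and 5.42% for BUB1B (interval 4.21 to 6.87%), with 278 reads behind the neuron value. With all libraries, BUB3 passed by edgeR (adjusted p = 0.0193) and by limma with at least 20 reads (0.0221). It also passed by limma after quantile normalization (0.0468) and after scaling by the median of ratios (0.0476), and not in the other alternatives.

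All 7 outer kinetochore genes fell in neurons. NDC80, NUF2, SPC24 and SPC25 encode the complex of 4 proteins that grips the microtubule. NUF2 fell from 71.4, 62.1 and 77.8 to 3.41 FPKM, with 70.7 in RPGC, and SPC25 from 171, 121 and 187 to 8.03 FPKM, with 129 in RPGC. NDC80 fell from 41.2, 18.5 and 35.6 to 2.43 FPKM, with 38.0 in RPGC. The neuron library was the low one for each, and RPGC lay inside the NESC range. SPC24 was at 20.3, 25.9 and 41.9 FPKM in NESC and 31.6 in RPGC. Its neuron value was 0 in the table (limma, adjusted p = 0.0211), so no fold is given. Of the other outer kinetochore genes, CASC5, the scaffold also called KNL1, fell from 13.4, 7.50 and 10.2 to 0.879 FPKM, with 12.7 in RPGC (−2.56 ± 0.39 SE, adjusted p = 0.0342). The motor CENPE fell from 23.9, 24.0 and 42.0 to 1.85 FPKM, with 25.9 in RPGC, and CENPF, a large kinetochore protein of late G2, from 83.0, 68.2 and 101 to 4.14 FPKM, with 82.1 in RPGC. CENPF had 338 reads in neurons, and its interval of 4.41 to 5.47% of the NESC mean is among the tightest.

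Of the centromere and inner kinetochore genes, whose proteins stay on centromeres through much of the cycle, 5 of 6 fell. Their median log2 fold change was −2.61 (−4.11 to −1.71), against −4.01 (−4.86 to −2.56) for the outer kinetochore. The ranges overlapped, and the difference was not tested. CENPH fell most, from 42.4, 25.4 and 40.6 to 1.10 FPKM, with 33.6 in RPGC (−4.11 ± 0.39 SE, adjusted p = 0.0200), but on 4 reads in neurons, with an interval of 0.828 to 7.79% of the NESC mean. CENPN fell from 65.0, 63.0 and 65.7 to 4.99 FPKM, with 51.7 in RPGC. Its NESC values were the closest of all 45, within 1.04-fold, and its adjusted p of 0.00647 was the lowest. CENPK fell from 44.0, 36.9 and 48.4 to 5.98 FPKM, with 36.9 in RPGC, and CENPI from 16.3, 10.9 and 13.6 to 1.82 FPKM, with 12.4 in RPGC. CENPM was at 74.3, 66.5 and 96.0 FPKM in NESC and 66.6 in RPGC and fell to 23.2 FPKM (−1.71 ± 0.26 SE, adjusted p = 0.0344), which left 29.4% (interval 22.5 to 37.7%). CENPA, the histone variant that marks centromeres, was at 26.7, 14.1 and 30.04 FPKM in NESC, 31.3 in RPGC and 2.95 in neurons and did not pass (−2.57 ± 0.54 SE, adjusted p = 0.0535). Its NESC values spread 2.13-fold, and the neuron value was below each of them. With all libraries, CENPA passed by edgeR (adjusted p = 0.0110). It also passed by limma with at least 20 reads (0.0164) and after quantile normalization (0.0400), and not in the other alternatives.

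Both genes of the anaphase switch were low in neurons. PTTG1, which encodes securin, the inhibitor of separase, was at 269, 229 and 290.2 FPKM in NESC and 216 in RPGC and fell to 10.9 FPKM (−4.47 ± 0.18 SE, adjusted p = 0.00857). ESPL1, which encodes separase, the protease that opens cohesin, was at 15.6, 4.85 and 15.0 FPKM in NESC, 16.0 in RPGC and 0.514 in neurons, and did not pass (−2.93 ± 0.81 SE, adjusted p = 0.0848). It kept 4.35% of its NESC mean, close to the 4.14% of securin, but its NESC values differed 3.21-fold, the widest of the 45, with passage 24 the low one. With all libraries, ESPL1 passed by edgeR (adjusted p = 0.0105) and by limma with at least 20 reads (0.0300), and not in the other alternatives.

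All 7 genes of condensin and chromosome structure fell in neurons. SMC2 and SMC4, the ATPase pair shared by condensin I and II, fell from 42.8, 36.5 and 44.2 to 3.42 FPKM, with 35.8 in RPGC, and from 83.6, 67.0 and 74.7 to 9.10 FPKM, with 81.7 in RPGC. Of the condensin I subunits, NCAPG fell from 92.3, 64.2 and 102 to 4.06 FPKM, with 80.5 in RPGC, and NCAPH from 51.5, 40.1 and 65.3 to 1.89 FPKM, with 47.4 in RPGC. NCAPD2, the third, fell less, from 72.1, 53.1 and 94.0 to 11.1 FPKM, with 112 in RPGC (−2.58 ± 0.39 SE, adjusted p = 0.0331), leaving 15.2% (interval 13.3 to 17.2%) against 4.72% for NCAPG (interval 3.75 to 5.86%) and 3.61% for NCAPH (interval 2.29 to 5.42%). TOP2A, the topoisomerase that untangles sister chromatids, fell from 253, 154 and 228 to 9.58 FPKM, with 199.8 in RPGC. MKI67, which encodes the Ki-67 protein that coats mitotic chromosomes and marks cycling cells, fell from 70.1, 45.2 and 84.6 to 2.31 FPKM, with 69.4 in RPGC (−4.31 ± 0.43 SE, adjusted p = 0.0208), and had 15 reads left in neurons.

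The 3 spindle and cytokinesis genes fell in neurons. TPX2, which activates AURKA on spindles, fell from 78.8, 53.5 and 82.9 to 6.19 FPKM, with 68.9 in RPGC (−3.31 ± 0.33 SE, adjusted p = 0.0205). ANLN, which encodes anillin of the cleavage furrow, fell from 57.4, 28.2 and 54.5 to 2.24 FPKM, with 44.8 in RPGC (−3.81 ± 0.53 SE, adjusted p = 0.0297). PRC1, which bundles microtubules of the midzone, fell from 99.1, 67.8 and 122 to 5.82 FPKM, with 84.4 in RPGC. In neurons all 3 lay far below the NESC values, which overlapped with RPGC.

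**Figure D3:**
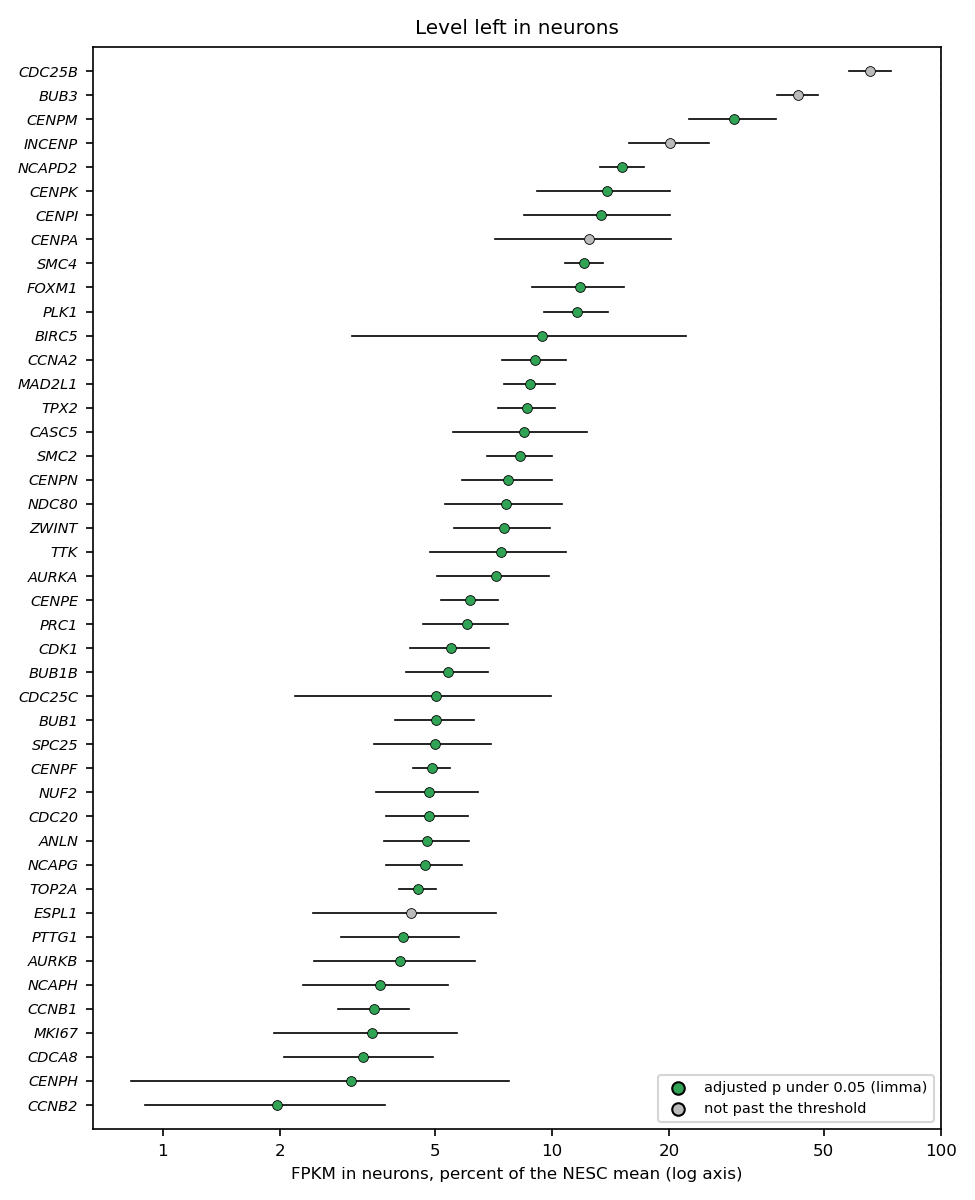
Points give the FPKM in neurons as a percent of the NESC mean for 44 genes, on a log axis, and bars give exact Poisson intervals for the neuron reads, which cover counting error only. The median of the 44 genes drawn is 6.67%, while CENPM, BUB3 and CDC25B lie at 29.4, 42.9 and 65.9%. SPC24 is not drawn, as it was listed at 0.

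Other genes of cell division, taken from lists of the same pathways, were lower in neurons by the median of each list, to differing degrees. The shares to set beside the counts of each list are those of all genes tested, 13.3% falling and 14.3% rising. Of 15 other spindle and cytokinesis proteins tested, 12 fell and 1 rose, with a median log2 fold change of −3.40. The gene that rose was NUMA1, a spindle pole protein, named after its value was seen (1.24 ± 0.19 SE, adjusted p = 0.0342). DLGAP5, a spindle protein whose locus holds 2 other genes, fell from 102, 77.4 and 107 to 2.73 FPKM. CKAP5, which makes microtubules grow in many cell types, was at 221, 153 and 209 FPKM in NESC and 127 in neurons (−0.59 ± 0.27 SE, adjusted p = 0.202). RACGAP1, of the cytokinesis machinery, was at 56.0, 32.8 and 58.1 FPKM and 35.8 in neurons (−0.40 ± 0.43 SE, adjusted p = 0.524). Of 22 other centromere and kinetochore genes tested, 14 fell and 0 rose, with a median of −2.21. CENPW, which binds centromeric DNA, fell from 192, 198 and 253 to 11.9 FPKM, and SKA1, of the complex that tracks microtubule ends, from 35.6, 23.4 and 37.0 to 1.04 FPKM. SKA2, of the same complex, was at 179.6, 214 and 229 FPKM in NESC and 197 in neurons (−0.07 ± 0.19 SE, adjusted p = 0.809).

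Cohesin holds sister chromatids together and also folds chromatin in cells that do not divide. Of 16 genes of cohesin and its regulators, 6 fell and 0 rose, with a median log2 fold change of −0.54. The 6 were CDCA5, SGOL1, SGOL2, ESCO2, SMC1A and WAPAL. CDCA5, which encodes sororin, fell from 58.0, 51.9 and 111 to 1.89 FPKM, on 2 reads. SGOL1, a shugoshin that protects centromeric cohesin, fell from 39.2, 19.0 and 28.5 to 0.986 FPKM and SGOL2, another, from 26.5, 13.9 and 26.3 to 1.49 FPKM. Of the genes outside the naming rule, named here after their values were seen, SMC1A, a core subunit of the ring, fell from 85.3, 77.6 and 91.0 to 32.8 FPKM (−1.34 ± 0.14 SE, adjusted p = 0.0209), and WAPAL, which releases cohesin from chromatin, from 42.1, 40.6 and 44.2 to 24.5 FPKM (−0.76 ± 0.11 SE, adjusted p = 0.0330). RAD21, the ring subunit that separase cuts, was at 149.9, 124 and 151 FPKM in NESC and 155 in neurons (0.13 ± 0.17 SE, adjusted p = 0.591). STAG1, which binds the ring, was at 64.1, 65.0 and 60.7 FPKM in NESC and 58.7 in neurons (−0.11 ± 0.10 SE, adjusted p = 0.468).

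Of the 3 subunits particular to condensin II, 1 fell, with a median of −0.54. NCAPG2 fell from 41.4, 27.8 and 45.9 to 4.55 FPKM, while NCAPD3 was at 24.8, 19.5 and 26.0 FPKM in NESC and 20.01 in neurons (−0.21 ± 0.23 SE, adjusted p = 0.536) and NCAPH2 at 38.6, 34.1 and 39.9 FPKM and 25.4 (−0.54 ± 0.15 SE, adjusted p = 0.0847). The core of the APC/C, the ubiquitin ligase that CDC20 turns on, had 5 of 13 subunits that fell and 0 that rose, with a median log2 fold change of −0.71. ANAPC11, its RING subunit, fell from 111, 123 and 116 to 59.3 FPKM, and ANAPC2, its cullin, was at 16.9, 21.0 and 25.2 FPKM in NESC and 22.7 in neurons (0.13 ± 0.28 SE, adjusted p = 0.759).

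Among 5 ubiquitin enzymes and regulators around the APC/C, 2 fell and 1 rose, with a median of −0.97, where 13.3% of all genes tested fell and 14.3% rose. UBE2C, which hands ubiquitin to the APC/C, fell from 73.9, 45.2 and 63.3 to 2.18 FPKM, on 6 reads in neurons. It had 2 rows, and the row with more reads stands for it, at a locus listed with 8 other genes. FBXO5, an APC/C inhibitor, fell from 68.9, 60.9 and 68.3 to 9.31 FPKM. FZR1, the activator that takes the place of CDC20 in late mitosis and G1 and also acts in neurons, was at 18.1, 19.7 and 29.0 FPKM in NESC, 31.3 in RPGC and 54.4 in neurons (1.28 ± 0.34 SE, adjusted p = 0.0795). Its neuron value lay above every NESC library, while that of CDC20 lay below every NESC library. BTRC, of another ubiquitin ligase, rose from 19.0, 17.9 and 28.6 to 91.2 FPKM. Of 13 other mitotic kinases, phosphatases and cofactors, 7 fell and 0 rose past the threshold. Their log2 fold changes ran from −4.11 to 2.51 (median −2.59), so not all were lower in neurons. PBK and MELK, mitotic kinases, fell from 81.3, 57.1 and 70.4 to 4.16 FPKM and from 27.0, 19.3 and 31.5 to 1.08 FPKM. WEE1, which holds CDK1 inactive, was at 60.3, 121 and 244 FPKM in NESC and 6.06 in neurons and did not pass (−4.11 ± 0.93 SE, adjusted p = 0.0610), with NESC values that differed 4.04-fold.

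Of 9 transcription factors of the G2 and M programme, 3 fell and 0 rose (median −0.66). MYBL2, which works with FOXM1, fell from 56.0, 45.4 and 80.6 to 5.23 FPKM, and NFYA, a factor with targets in many cell types, was at 27.2, 29.3 and 29.0 FPKM in NESC and 33.5 in neurons (0.23 ± 0.12 SE, adjusted p = 0.248). For comparison, of 33 DNA replication genes 31 fell and 0 rose, with a median of −3.25, close to the −3.45 of the 45 mitotic genes. The difference between the lists was not tested.

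**Figure D4:**
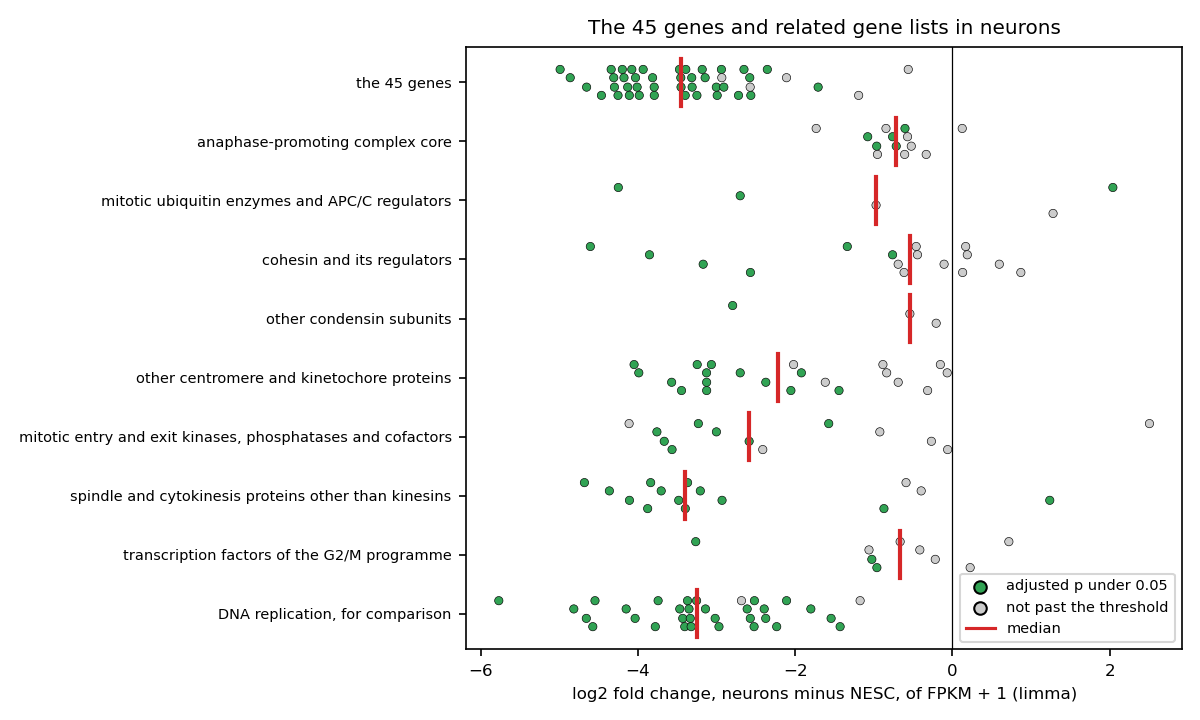
Each point is a gene, placed by its log2 fold change in neurons against NESC (limma, log2(FPKM + 1) scale), with 1 row per list and a bar at the median. Green points passed the adjusted p threshold of 0.05. The 45 genes, the other spindle proteins and DNA replication sit furthest left, and the medians of the APC/C core, at −0.71, and of the cohesin list, at −0.54, lie closer to 0.

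RPGC were set against NESC, from which the labels separate them by the absence of CHIR99021. Most of the 45 genes lay within the NESC range in RPGC, and the largest departure was a higher CDC25B. By limma 0 of 45 rose and 0 fell, with 0.714% of all genes tested rising and 0.0137% falling. By edgeR 0 of all 13063 genes passed, so that fit says nothing particular to the 45. An unadjusted p under 0.05 was reached by CDC25B and MAD2L1, 2 of the 45, in both fits, against 2050 of 14571 genes by limma and 1661 of 13063 by edgeR, a larger share. The median log2 fold change was −0.07 and that of all genes was 0.10. It ranged from −0.27 without NESC P24 to 0.09 without NESC P36, so its sign rests on which NESC libraries are used. RPGC lay inside the range of the 3 NESC libraries for 33 genes, above it for 7 (CDC25B, CDC25C, NCAPD2, ESPL1, TTK, ZWINT and CENPA) and below it for 5 (BUB3, MAD2L1, CENPN, PTTG1 and SMC2). Of all genes tested, 38.2% lay above and 22.4% below that range.

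The highest of the 7 was CDC25B, whose RPGC level of 72.0 FPKM was 1.998 times the NESC mean, with all 3 NESC libraries lower (1.00 ± 0.30 SE, adjusted p = 0.338). NCAPD2 stood at 1.54 times the NESC mean (0.65 ± 0.39 SE, adjusted p = 0.521). No other gene of the 45 was at least 1.5-fold from the NESC mean and outside the NESC range. The lowest, MAD2L1, was at 0.735 times the NESC mean (−0.44 ± 0.12 SE, adjusted p = 0.328). CDC25B and CDC25C were both above the NESC range in RPGC.

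Against passage 36 NESC, the passage in the sample name of RPGC, 35 of the 45 genes were lower in RPGC, while 42.5% of all genes tested were lower. The median difference of log2(FPKM + 1) was −0.33, and 0.06 over all genes. AURKA was furthest below, at 0.579 times its passage 36 level, and CCNB1, CDK1 and PLK1 were at 0.643, 0.660 and 0.637 times. CDC25B was at 1.72 times and CASC5 at 1.25 times. With 1 library on each side this difference has no replicate check. Passage 36 was itself the highest NESC library for 32 of the 45 genes, against 37.3% of all genes tested.

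**Figure D5:**
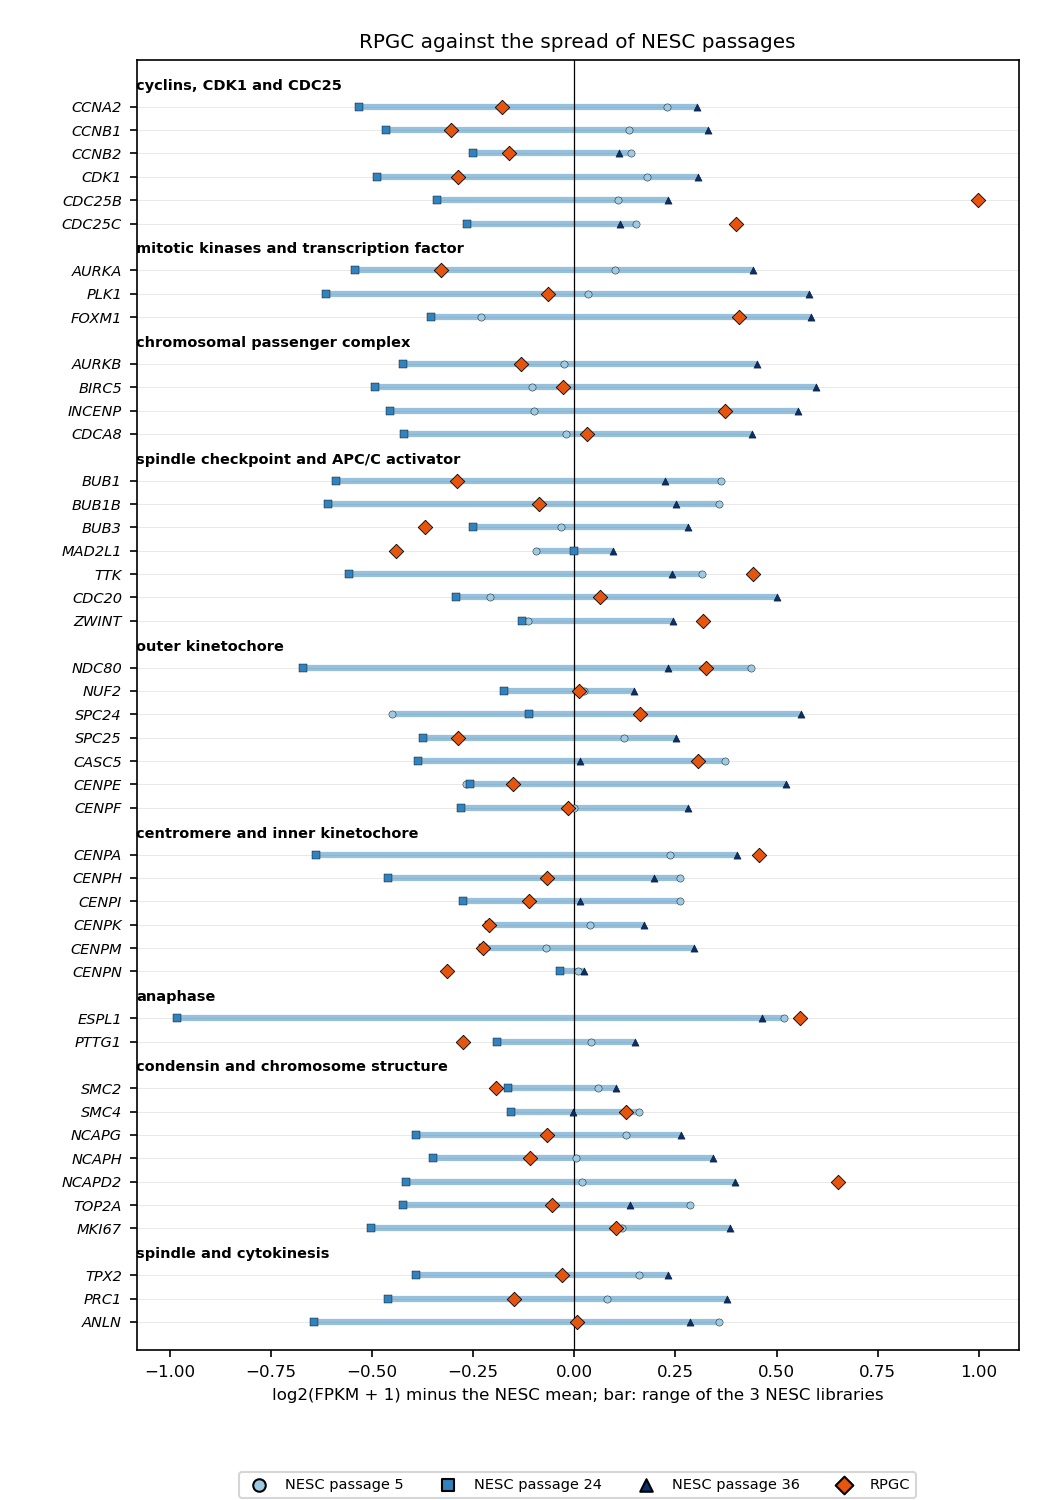
Points give log2(FPKM + 1) minus the mean of the 3 NESC libraries for each gene, and bars span the NESC range. RPGC falls inside the bar for 33 of 45 genes, and CDC25B and NCAPD2 lie furthest to the right of it. Passage 24 marks the low end of the bar for 42 genes.

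Neurons and RPGC differed by a median log2 fold change of −3.51 over the 45 genes, and −0.05 over all genes tested. All 45 were lower in neurons, 23 of them past the threshold by limma, against 3.68% of all genes falling and 3.88% rising. The largest fall with reads in both was that of CCNB2 (−4.83 ± 0.27 SE, adjusted p = 0.0166), and the smallest adjusted p was that of CENPN (−3.14 ± 0.13 SE, adjusted p = 0.0106). CDC25B was at 72.0 FPKM in RPGC and 23.8 in neurons (−1.56 ± 0.36 SE, adjusted p = 0.101), and BUB3 was at 112 and 62.9 FPKM (−0.82 ± 0.32 SE, adjusted p = 0.201). The count of 23 moved with the fit. It was 43 on genes with at least 20 reads, where 1850 of all 12212 genes passed in either direction. With edgeR it was 42, where 1599 of all 13063 genes passed. It was 2 without NESC P5 (CENPN and MAD2L1), and 0 without NESC P24 or without NESC P36. This comparison shares its neuron library with that against NESC.

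The NESC passages were compared to see how alike the cells stayed in culture. No gene of the 45 passed for passage 5 against passages 24 and 36, by limma or by edgeR. Over all genes, 0 of 14571 (0%) passed by limma in either direction, and 51 of 13063 by edgeR. An unadjusted p under 0.05 was reached by 0 of the 45 and 1459 of all genes by limma. With edgeR it was reached by 1 of the 45 (CASC5) and 1532 of all 13063 genes, a larger share. The median log2 fold change of the 45 by limma was 0.15, and 0 over all genes. It was −0.13 against passage 36 alone and 0.43 against passage 24 alone, values with no test, so that by the median passage 5 lay between the later passages. By gene, passage 5 was the highest NESC library for 13 of the 45 and the lowest for 3, against 34.7% and 34.7% of all genes tested.

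Passage 24 was the lowest NESC library for 42 of the 45 genes, where it was the lowest for 33.6% of all genes tested, and the highest for 0 of the 45, against 25.7%. It was below passage 36 for all 45, against 54.8% of all genes. The median ratio of passage 24 to passage 36 was 0.614, and the median difference of log2(FPKM + 1) was −0.69 for the 45 genes and −0.05 for all genes. ESPL1 had the lowest ratio, 0.324, followed by PLK1 at 0.434 and BIRC5 at 0.459. At the other end CENPN and MAD2L1 stood at 0.958 and 0.935. The 3 genes not lowest at passage 24 were SPC24, CENPE and MAD2L1, each lowest at passage 5. DNA replication genes were below passage 36 at passage 24 for 31 of 33, and lowest there among NESC for 20. With 1 library per passage, passage, culture and library cannot be told apart. Fibroblast and mesenchyme markers (6 of 7 in the table) summed to 64.7, 17.1 and 4.78 FPKM in NESC, with 1 at 0 in passage 36, and their part in these differences was not tested.

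Some limits apply to single genes. Of the 45, 10 (AURKA, CDC20, MKI67, CDC25B, CDC25C, CDCA8, CENPA, BUB1B, NCAPD2 and ANLN) share their locus in the table with another gene, and whether reads were counted by strand is not stated. At the BUB1B locus, PAK6 was at 0.235, 0.128 and 0.221 FPKM in NESC and 7.07 in neurons, so its reads moved against those of BUB1B. At the CDC20 locus, ELOVL1 was at 22.7, 26.5 and 22.3 FPKM in NESC and 8.25 in neurons, the same direction as CDC20. CSTF1 at the AURKA locus also fell, from 55.5, 49.1 and 54.8 to 27.4 FPKM. A gene without a symbol at the MKI67 locus went from 6.30, 12.9 and 10.4 to 0. KIAA0895 at the ANLN locus went the other way, from 20.3, 13.4 and 16.4 to 22.3 FPKM. Not all neighbours are given here. In neurons 9 of the 45 had under 20 reads, so how far each of them lay below NESC is known only roughly.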

How the data were processed

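The libraries were made from fragmented mRNA with random primers, per the labels' protocols. TopHat2 2.0.9 is the aligner that the submitters' processing notes name, while genome build, annotation and counting program were not given in the sources used here. Values in the deposited table are FPKM, per the file headers, and a normalized count, a deposited signal equal to whole reads times 1 factor per library. Divided by that factor, every value came within 0.1 of a whole read except 1 of the 16970 in passage 36 NESC. edgeR on these reads called 4780 of 13063 genes for neurons against NESC.

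Symbols missing from the table came from the gene ID in a later annotation, used for names only. limma 3.58.1 in R 4.3.3, with a trend, was run two-sided on log2(FPKM + 1) of 14571 genes, those reaching FPKM 1 in any library, in a model of 3 groups (2 residual degrees of freedom) or, for passages, 4 groups (1). edgeR 4.0.16 (quasi-likelihood, TMM) on the recovered reads was an alternative, and counts of other settings are given at the end. The fits were run on simulated data to check the recovery of known fold changes. Every simulated library was drawn with the spread of NESC. Such data cannot check the assumption that the lone libraries vary as NESC do. Poisson intervals cover counting error only. Full statistics were planned for the largest and smallest change of each role group, for each gene that did not pass in neurons and for each gene outside the NESC range and 1.5-fold from its mean in RPGC, and others are given where they help. The 45 genes, lists and tests were chosen with earlier results of these data known.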

Additional observations from a re-analysis of the deposited data

How the results depend on the processing

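The median log2 fold change of the 45 genes in neurons against NESC kept its direction under every alternative run, from −3.98 to −3.44 with all libraries and from −3.54 to −3.35 with 1 NESC library left out. The median moved by more than the spread of NESC with a pseudocount of 0.1 (−3.89 against NESC, −3.91 against RPGC) and, against NESC, by edgeR on recovered reads (−3.98). The count of genes past the threshold against NESC was 36 to 44 with all libraries and 0 to 5 with 1 NESC library left out. Against RPGC it was 18 to 27 in all fits but 2, 43 with a minimum of 20 reads and 42 by edgeR on recovered reads, and 0 to 2 with 1 NESC library left out. Each such fit has 1 residual degree of freedom fewer. For RPGC against NESC, and for passage 5 against later passages, the count stayed at 0 in every alternative. Over all genes, the calls for neurons against NESC went from 4013 to 886 without NESC P5 and to 0 without P24 or P36, those for neurons against RPGC from 1101 to 569, 0 and 0, and rose to 1896 without a filter and 1850 with at least 20 reads. Those for RPGC went from 106 to 296 without a filter, 56 without a trend, and 0 with at least 20 reads, by edgeR and without any NESC library. Those for passage 5 went from 0 to 123 with a pseudocount of 0.1 and 51 by edgeR. Alternatives for single genes were run for the 21 results of the naming rule within the 45 genes (19 for neurons and 2 for RPGC against NESC), and not for the other genes named with statistics. Of these 231 values, 41 lost the threshold, 40 of them with an NESC library left out, 12 gained it and 0 changed direction. No paired analysis was possible because the groups share only the number 36. Passage 5 could not be left out of its own comparison, and neurons against RPGC alone leaves no residual degrees of freedom. Depth limits the lowest genes, with 9 of 45 under 20 reads in neurons.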
